A study of Mus musculus with 2 samples.

Results

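Immediate early genes and heat shock genes were followed as a pair of gene groups in single epithelial cells of the mouse oviduct. The members were given as a list of 49 genes, 35 immediate early and 14 heat shock. All 35 immediate early members and 13 of 14 heat shock members were present among the 26897 genes that the adult table (27998 genes) and the table of postnatal day 4 (53573 genes) share. Hspa5bp1 was found under that symbol in neither table and is not analysed here. The groups are described apart throughout.

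The cells came from C57BL/6 mice, the oviduct being the tube that carries the egg from ovary to uterus. One library was made from adults at estrus and one from pups at postnatal day 4 (P4). In both, tissue was dissociated with enzymes, and dead cells were removed and epithelial cells enriched by sorting with antibodies to Epcam, an epithelial surface protein, and CD45, a leukocyte protein. Droplet libraries were then made with the 10x Chromium 3′ V2 kit. The labels name no genotype other than the strain, no treatment, no adult age and no number of animals, and cells of the uterine or ovarian end are not told apart. The adult library holds 406 cells in the authors' clusters 0, 1, 3, 4 and 5 (130, 183, 37, 31 and 25 cells), and the P4 library 263 cells in clusters 0 and 1 (168 and 95 cells).

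Immediate early genes are transcribed within minutes of a signal such as a growth factor, a cytokine or mechanical stress, with no need for new protein. Signals through MAP kinases reach factors already bound to their promoters, the resulting Fos, Jun and Egr proteins then switch on a second wave of genes, and other members (Dusp1, Zfp36, Socs3, Nfkbia) shut the response down. Heat shock genes encode chaperones that hold and refold proteins; some are present in all cells, others are induced by heat shock factor when unfolded protein builds up. Both groups are known to respond when a tissue is taken apart with enzymes, a step every cell of both libraries went through. The part of that step in the values below was not tested.

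A level is the number of UMI (counted molecules) of a gene, or of a list, in a group of cells per 10000 UMI of that group. Brackets hold exact 95% Poisson intervals, and ratios of levels carry an exact conditional interval. Neither interval covers more than the error of counting. With 1 library per age, no difference could be set against the spread between animals, and no p-value is given. A gene was counted as measured in a comparison when at least 10% of cells on either side held a UMI, and a fold of at least 2, with a pseudocount of 0.1 per 10000, was the rule of size. The clusters are the authors' and were formed from expression, so the genes described here may have helped to form them.

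Depth was lower in the adult library (median 3232 UMI per cell) than at P4 (7585), and lowest in adult cluster 4 (1185). Adult cells were listed in 807 columns under 2 prefixes, with 401 barcodes under both. The 2 columns of a barcode held nearly the same counts: the squared difference over the sum of their immediate early UMI averaged 0.0952, against 8.66 between neighbouring cells of a cluster, so each barcode was counted once. No barcode was shared by the adult and P4 libraries. The summed level of 10 multiciliated markers was 140 in adult cluster 1 and 97.3 in cluster 3, against 2.50 to 9.64 in the other adult clusters and 6.54 and 1.31 in P4 clusters 0 and 1. That of 8 secretory markers was 352 in cluster 4, 92.0 in cluster 0 and 68.0 in cluster 5, against 11.1 and 31.1 in clusters 1 and 3. Smooth muscle markers reached 75.8 in cluster 5 and at most 5.26 elsewhere. Of 7 leukocyte markers 4 had UMI in the adult and 5 in the P4 library, with summed levels of 0.778 and 0.815. The leukocyte sum was at most 1.95 in any cluster (adult cluster 3), and single cells reached 49.2 there and 36.9 in P4 cluster 0. Among those markers Ptprc, which encodes CD45, and Cd3e were at 0 in both libraries. The median share of mitochondrial UMI was 3.996% in adult and 0.844% in P4 cells.

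The 35 immediate early genes together were highest in adult cluster 3 and lowest in adult cluster 4. Their summed level was 195 (191.6 to 199.3) in adult cluster 0, 89.0 (86.6 to 91.4) in cluster 1, 254.8 (245.9 to 263.8) in cluster 3, 61.9 (55.8 to 68.4) in cluster 4 and 143.7 (136.7 to 150.8) in cluster 5. In P4 clusters 0 and 1 it was 115.3 (113.5 to 117) and 158.7 (155.7 to 161.8). No 2 of the 7 intervals overlapped. These totals cover all genes of each table, and 13.4% of P4 and 1.79% of adult UMI came from genes that the other table lacks. Over shared genes the P4 clusters had 133.3 and 182.4 and the adult clusters 0, 1, 3, 4 and 5 had 198.9, 90.7, 259.5, 63.0 and 146.0. On either scale the adult clusters reached above and below both P4 clusters.

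The 13 heat shock genes followed another order. Their summed level was 94.1 (91.7 to 96.6) in adult cluster 1 and 85.6 (80.6 to 91.0) in cluster 3, the clusters with the most multiciliated marker UMI. It was 43.3 (41.5 to 45.1) in cluster 0, 43.0 (39.3 to 47.0) in cluster 5 and 32.7 (28.3 to 37.6) in cluster 4. P4 clusters 0 and 1 held 52.1 (50.9 to 53.3) and 52.2 (50.4 to 53.9). Over shared genes these 2 values were 60.3 and 59.9. The intervals of adult clusters 0 and 5, and those of the P4 clusters, overlapped. Cluster 1, second lowest of the 7 for immediate early genes, was thus highest for heat shock genes.

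**Figure D1:**
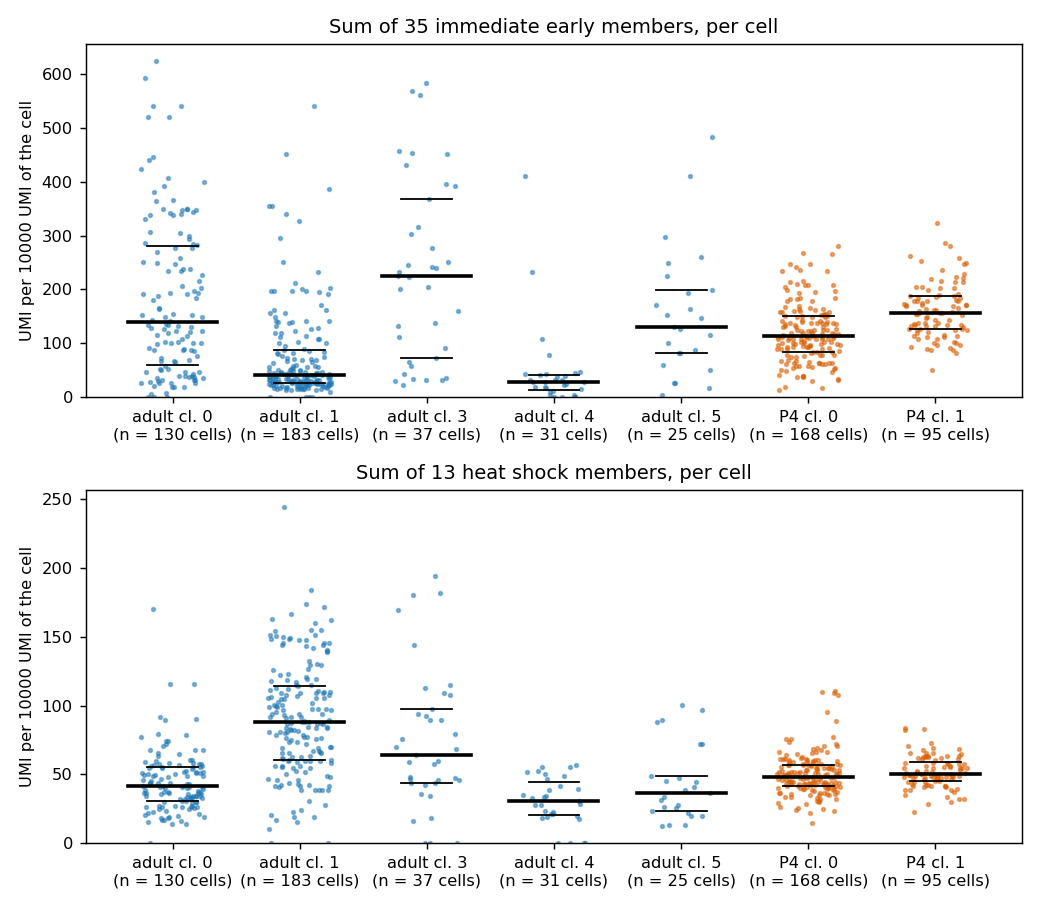
Each point is a cell and gives the sum of the 35 immediate early members (top) or the 13 heat shock members (bottom) in UMI per 10000 UMI of that cell, by the authors' cluster (blue adult, orange P4). The long bar is the median and the short bars are the quartiles. Immediate early sums reached 624 in adult cluster 0 and 323 in P4 cluster 1, and the median of heat shock sums was highest in adult cluster 1, at 87.9.

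Single cells of an adult cluster differed widely in immediate early genes. In adult cluster 0 the sum per cell had a median of 139, quartiles of 59.5 and 281 and a maximum of 624, and 3 of 130 cells held none. Cluster 1 had a median of 40.5 with quartiles of 25.9 and 88.0, but its highest cell reached 540. The 18 cells of cluster 1 with the most immediate early UMI held 48.4% of them, and 3 such cells of cluster 4 held 66.9%. These pooled levels thus rest largely on few cells, and depth enters that ranking. Ranked by sum per 10000 UMI, the top 18 and 3 cells held 37.4% and 51.6% of the sums of all cells. In the P4 clusters the 17 and 10 cells with the most immediate early UMI held 21.6% and 21.4%. Ranked by sum, the top 17 and 10 cells held 19.4% and 17.1%. Quartiles of the sums in P4 clusters 0 and 1 lay between 83.8 and 151 and between 126 and 188. With every cell thinned to 1000 UMI the quartiles were 60 and 312.5 in adult cluster 0 (112 cells, 18 shallower cells left out) and 70 and 160 in P4 cluster 0 (168 cells, none left out).

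Heat shock sums had quartiles closer together in adult clusters 0 and 1. They were 30.6 and 55.7 in cluster 0 and 60.5 and 114 in cluster 1. Medians were 41.4, 87.9, 64.3, 30.5 and 36.9 in adult clusters 0, 1, 3, 4 and 5, and 48.4 and 50.7 in P4 clusters 0 and 1. The 13 cells of adult cluster 0 with the most heat shock UMI held 26.9% of them. The 13 cells with the most immediate early UMI held 33.3% of those. In P4 cluster 0 the 17 cells with the most held 27.0% of heat shock and 21.6% of immediate early UMI. In P4 cluster 1 the shares for 10 cells were 20.3% and 21.4%. Depth enters these shares. With cells ranked by sum per 10000 UMI, heat shock first, the shares of the sums were 20.5% and 26.4% in adult cluster 0. They were 16.7% and 19.4% in P4 cluster 0, and 14.8% and 17.1% in P4 cluster 1. At most 13 heat shock and 35 immediate early members could be seen in a cell, and the median cell of adult cluster 0 held 14 immediate early and 5 heat shock members.

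Messages of many immediate early genes are short-lived, because sequences rich in A and U in the 3′ untranslated region (UTR) are bound by proteins such as tristetraprolin, the product of the member Zfp36, which recruit the machinery that removes the poly(A) tail. The core letters TATTTAT were searched in the 3′ UTR of the gene models (GENCODE M21, GRCm38, as DNA letters on the gene's strand). They were present in 22 of 35 immediate early members (62.9%), in 1 of 13 heat shock members (7.69%, Hsph1) and in 25.7% of the 19868 protein-coding genes with a 3′ UTR. At least 2 occurrences were found in 11 of 35 immediate early members (31.4%) and in 9.37% of all genes. Per kilobase of 3′ UTR there were 0.843 occurrences in the immediate early, 0.0816 in the heat shock and 0.314 in all genes, in the same order. An occurrence is a match of letters, not a measured binding site. In each window below 1 match is in capitals, and that of Ier3 also holds a match at base 190, left in small letters. Shown with 10 bases on either side and the match in capitals are a transcription factor, a survival gene and a pair of dampers of the response, Zfp36 itself among them, whose levels are described next:
Fos, at base 656 of 815 of its 3′ UTR: gttttcaattTATTTATtaagatggat
Ier3, at base 182 of 613: gtctaattaaTATTTATgtatttatgt
Dusp1, at base 104 of 690: agctggtcctTATTTATttaacacccc
Zfp36, at base 575 of 774: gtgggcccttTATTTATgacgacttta
The genes were also compact. The median span from first to last base was 4.26 kb for immediate early members and 9.10 kb for heat shock members, against 17.7 kb for 20967 protein-coding genes, and the median number of exons was 3, 4 and 7.

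Adult cluster 0 held more of most immediate early messages than adult cluster 1. Of 30 measured immediate early members 21 were at least 2-fold higher in cluster 0, where 12.7% of 5494 measured genes were, and 1 (Klf2) was at least 2-fold lower, as were 23% of all. The ratio of the summed levels was 2.20 (2.12 to 2.27). The median log2 fold of the measured members was 1.34, beside -0.18 for all measured genes. The 5 members not measured were Egr2, Egr3, Dusp2, Dusp6 and Nr4a2. Cluster 1 and cluster 0 also differed in the share of ribosomal protein UMI, with medians of 9.12% and 24.7% of a cell's UMI, and its part in the result was not tested. Median mitochondrial shares were 4.402% and 3.996%. With mitochondrial and ribosomal protein genes left out of the totals the log2 fold of the sums was 1.40 in place of 1.13.

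The comparisons within the adult library share clusters: cluster 1 is the reference for clusters 0 and 3, and cluster 0 for clusters 4 and 5. Their values are given side by side and do not support one another. Adult cluster 3 had 22 of 29 measured immediate early members at least 2-fold above cluster 1 and none below, with 11.7% of 5483 measured genes above and 9.06% below. The ratio of summed levels was 2.86 (2.74 to 2.99), and the median log2 fold was 1.5, beside 0.02 for all genes. Median ribosomal protein shares were 9.47% in cluster 3 and 9.12% in cluster 1, and median mitochondrial shares 2.12% and 4.402%. Secretory markers (31.1 against 11.1) and 7 epithelial markers (61.3 against 29.5) were also higher in cluster 3, and the part of these in the result was not tested. In cluster 4 no measured immediate early member of 30 was at least 2-fold above cluster 0 and 26 were below, among 8.99% and 20.8% of 4474 measured genes. The ratio was 0.316 (0.285 to 0.351). Median mitochondrial (1.94% against 3.996%) and ribosomal protein shares (17.3% against 24.7%) were lower in cluster 4 and secretory markers higher, and their part was not tested. Cluster 4 is thinly counted, with 61113 UMI in all: for 18 of the 26 members the interval of the ratio left out 1, and Fosl2, Myc and Sgk1 had 0 UMI there. Set at a floor of 3 counts over the cluster, Fosl2 was 1.27-fold lower, but the interval of its ratio held 1. Myc and Sgk1 lay under that floor in cluster 0 too. With Fosl2 at the floor and Myc and Sgk1 at no fold, the median log2 fold was -1.45 in place of -1.78.

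Cluster 5 differed less from cluster 0. Of 31 measured immediate early members none was at least 2-fold higher and 4 (Jun, Atf3, Klf6 and Maff) were lower, where 14.8% and 8.41% of 5835 measured genes were. The ratio of the sums was 0.735 (0.697 to 0.775), and the median log2 fold was -0.30 beside 0.12 for all genes. In 7 of its 25 cells smooth muscle markers took 44 to 186 UMI, and in the other 18 cells 0 to 5. The immediate early level was 157.5 (147.5 to 168.1) in the 7 cells and 128.8 (119.4 to 138.7) in the other 18. Without those 7 cells 11 immediate early members, in place of 4, were at least 2-fold below cluster 0.

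**Figure D2:**
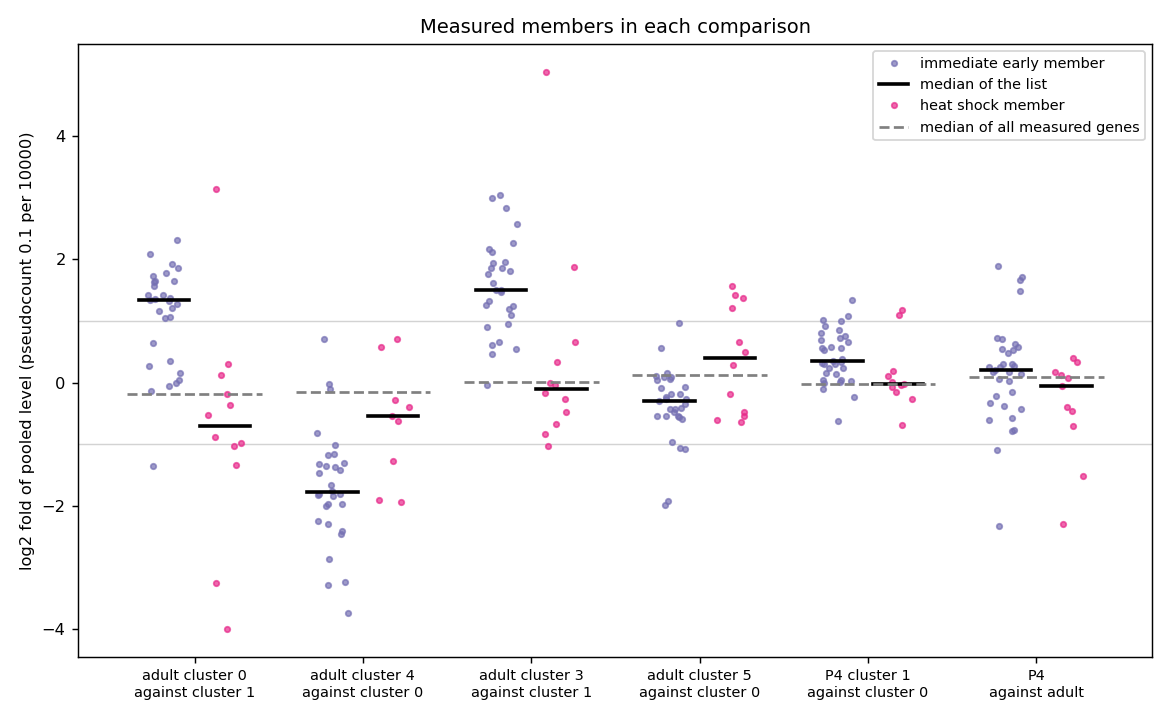
Each point is a measured member and gives its log2 fold of pooled level in 1 of 6 comparisons (purple immediate early, pink heat shock). Black bars are list medians, dashed lines the median of all measured genes, and thin grey lines mark 2-fold. The immediate early median was 1.34 in adult cluster 0 against cluster 1 and 1.5 in cluster 3 against cluster 1, and 3 of the points of cluster 4 against cluster 0 stand for genes with 0 UMI, whose place depends on the pseudocount.

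Fos and Jun proteins pair to form AP-1, the transcription factor best known from this response. Fos, a gene of 4 exons at chr12:85473890-85477273 on the plus strand (GRCm38), had a level of 31.3 (29.8 to 32.9) in adult cluster 0, 12.1 (11.2 to 13) in cluster 1, 34.3 (31.1 to 37.8) in cluster 3, 8.84 (6.64 to 11.5) in cluster 4 and 23.2 (20.5 to 26.2) in cluster 5. In P4 clusters 0 and 1 its level was 11.9 (11.4 to 12.5) and 15.1 (14.2 to 16.1). Among adult clusters, 0 and 3 were thus highest and overlapped, and 1 and 4 were lowest. Levels of this and the following genes by cluster are over all genes of each table unless shared genes are named. Since 13.4% of P4 UMI came from genes the adult table lacks, P4 levels read lower on that scale than over shared genes. A Fos UMI was seen in 77.7% of cells of adult cluster 0, 59.0% of cluster 1 and 19.4% of cluster 4, the cluster with the fewest UMI per cell, and in 95.8% and 97.9% of P4 cells in clusters 0 and 1.

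Fosb, a close relative of Fos, had levels of 4.08 in adult cluster 0, 0.743 in cluster 1, 4.95 in cluster 3, 0.327 in cluster 4 and 2.05 in cluster 5, and of 1.31 and 2.29 in the P4 clusters. Its ratio of 5.49 (3.95 to 7.78) between clusters 0 and 1 was the highest among members more than 2-fold higher there, apart from the sparse Myc. Jun had 20.7, 8.47, 16.6, 5.73 and 9.81 in adult clusters 0, 1, 3, 4 and 5, and 9.52 and 9.80 in the P4 clusters, whose intervals overlapped. Junb had 18.3, 6.11, 22.6, 4.58 and 12.5 in the adult and 10.7 and 16.0 in the P4 clusters. Jund, a Jun family member with steady expression in many tissues, departed from these: it had 20.4 (19.1 to 21.6) in cluster 0 and 18.3 (17.2 to 19.4) in cluster 1, a ratio of 1.11 (1.02 to 1.21). Fosl2, a Fos relative, was at 0.624 and 0.625 in clusters 0 and 1, at 2.35 in cluster 3, and at 0.979 and 1.46 in the P4 clusters.

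Egr1, a zinc finger factor induced through MAP kinases, had levels of 6.65, 1.86, 5.36, 2.62 and 5.62 in adult clusters 0, 1, 3, 4 and 5 and of 4.26 and 5.07 in P4 clusters 0 and 1. Atf3, a stress-induced factor that binds like AP-1, was highest in adult cluster 3, at 19.2 (16.9 to 21.9), beside 7.37 (6.65 to 8.15) in cluster 0, 2.31 (1.94 to 2.73) in cluster 1, 1.47 in cluster 4 and 1.78 in cluster 5. The ratio of cluster 3 to cluster 1 was 8.32 (6.71 to 10.3). The median per cell was 0 in clusters 0 and 1 and 9.70 in cluster 3, where the highest cell had 62.9. Nr4a1, an orphan nuclear receptor, had 1.58, 0.709, 3.82, 0.655 and 1.70 in the adult clusters and 2.68 and 5.55 at P4. Adult cluster 3 thus lay between the P4 clusters, and the other adult clusters lay below both.

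Krüppel-like factors did not all go the same way. Klf6 had 9.94 in adult cluster 0 and 3.63 in cluster 1, and Klf4, a regulator of epithelial differentiation, 1.23 and 0.473. Klf2, a factor known for its induction by fluid flow in vessel walls, ran the other way. Its level was 1.75 (1.41 to 2.16) in cluster 0 and 4.64 (4.11 to 5.22) in cluster 1, a ratio of 0.378 (0.295 to 0.481), and it was 4.55 (3.43 to 5.90) in cluster 3, 0.818 in cluster 4 and 1.16 in cluster 5. The clusters with high multiciliated marker sums were thus high in Klf2. A Klf2 UMI was seen in 24.6% of cells of cluster 0 and 49.7% of cluster 1, and in P4 clusters 0 and 1 the level was 0.493 (0.386 to 0.621) and 0.453 (0.305 to 0.646).

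Members that damp the response were high in the same clusters as Fos. Dusp1, a phosphatase that switches off MAP kinases, had 7.35 (6.63 to 8.13) in adult cluster 0, 2.87 (2.45 to 3.33) in cluster 1, 21.2 (18.7 to 23.9) in cluster 3, 2.78 in cluster 4 and 5.26 in cluster 5. Its ratio of cluster 3 to cluster 1 was 7.38 (6.06 to 9.01), and in P4 clusters 0 and 1 it was at 3.88 and 7.43. Zfp36 had 5.38 in cluster 0, 1.65 in cluster 1, 4.30 in cluster 3 and 2.62 and 4.18 at P4. Socs3, an inhibitor of cytokine receptor signals, had 5.62, 2.45, 8.85, 0.327 and 5.80 in adult clusters 0, 1, 3, 4 and 5. The value in cluster 4 rests on 2 counts, and its ratio to cluster 0 was 0.0583 (0.00702 to 0.212). Nfkbia, which holds NF-kappa-B in the cytoplasm, had 6.42 in cluster 0, 1.97 in cluster 1 and 6.25 in cluster 3. Ier3, an early gene linked to cell survival, was 4.35-fold (3.66 to 5.20) higher in cluster 0 (12) than in cluster 1 (2.75), and stood at 6.66 in cluster 3.

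Growth arrest genes split by cluster. Gadd45b had 0.936 in adult cluster 0, 0.304 in cluster 1 and 3.25 (2.32 to 4.42) in cluster 3, and its ratio of cluster 3 to cluster 1 was 10.7 (5.99 to 19.8). Gadd45a, a target of p53, did not follow Fos in cluster 4: it had 3.76 (2.39 to 5.65) there, beside 2.26 (1.87 to 2.71) in cluster 0 and 0.523 in cluster 1. Gadd45g likewise had 3.76 in cluster 4 and 4.06 in cluster 0. Btg2, an inhibitor of proliferation, had 7.99, 2.35, 10.9, 2.29 and 6.25 in the adult clusters and 5.87 and 8.75 at P4. Cyr61, a secreted matrix protein induced by stretch and serum, was not higher in cluster 0 (2.38) than in cluster 1 (2.63) but stood at 10.4 (8.67 to 12.4) in cluster 3. Myc rests on few counts, with 23 UMI in cluster 0 and 3 in cluster 1, a ratio of 8.86 (2.68 to 46.1).

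**Figure D3:**
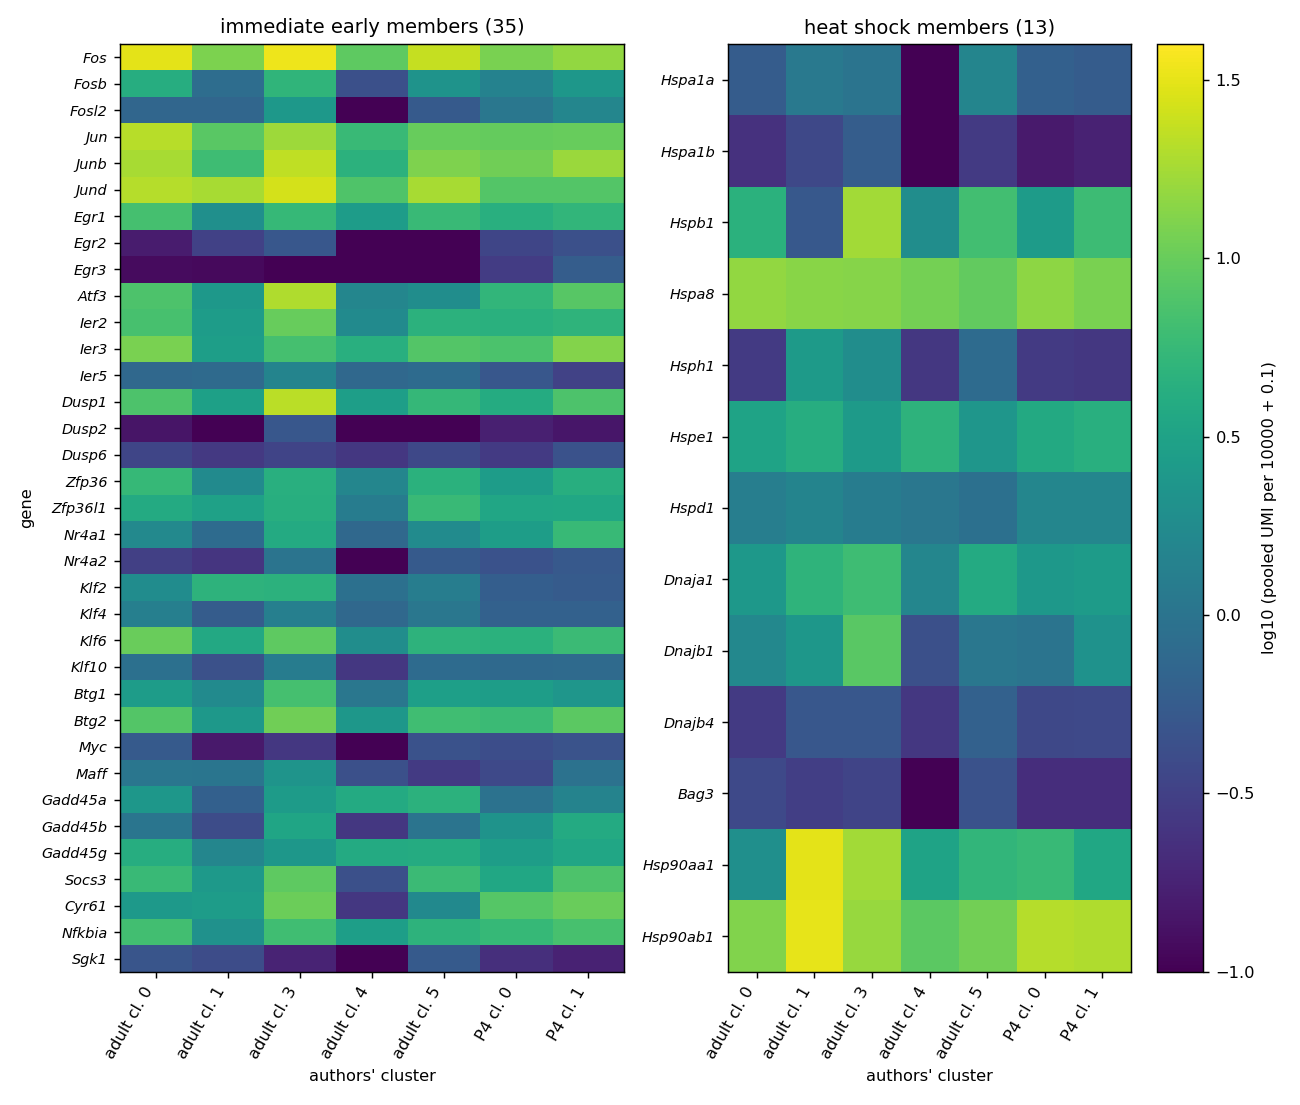
Colours give the log10 of the pooled level (UMI per 10000, plus 0.1) of each immediate early member (left) and heat shock member (right) in the 5 adult and 2 P4 clusters. Rows are to be read along the clusters, since levels of different genes are not compared. Adult cluster 3 is bright and cluster 4 dark for most immediate early rows, while Hsp90aa1 is brightest in adult cluster 1, at 31.3.

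Heat shock factor binds repeats of the letters GAA in alternating orientation. A pair of them, GAANNTTC, which reads the same on both strands, was searched in the 250 bases before the start of each gene (RefSeq, GRCm38.p6). Sequences were matched for 40 of 48 members. Hsp90aa1, Hsp90ab1, Hspa8, Egr1, Egr3, Ier2, Klf10 and Myc were not searched, for this or the sites below. The pair was found in 6 of 10 heat shock members (Dnaja1, Hspa1a, Hspa1b, Hspb1, Hspd1 and Hspe1), in 3 of 30 immediate early members (Fosl2, Jun and Sgk1) and in 7.73% of 27025 genes. The full heat shock element, in which a further GAA in opposed orientation follows the pair after NN on either side, overlaps the pair by its construction and occurred before Hspd1 and Hspe1 and in 0.514% of genes. These 2 genes lie head to head on chromosome 1 and overlap by 112 bases, so their match is 1 shared sequence. Windows are shown for Hspb1, whose levels differed between clusters, for the near-identical pair Hspa1a and Hspa1b, and for Hspe1, which holds the full element. The Hspe1 window holds a further full element that overlaps the marked one and is left partly in small letters. All are on the gene's strand with 1 match in capitals:
Hspb1, chr5:135887791-135887820, plus strand: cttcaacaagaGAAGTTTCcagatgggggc
Hspa1a, chr17:34972242-34972271, minus strand: cgaaactgctgGAAGATTCctggccccaag
Hspa1b, chr17:34959324-34959353, minus strand: cgaaactgctgGAAGATTCctggccccaag
Hspe1, chr1:55088051-55088079, plus strand: acggtccgTTCTAGAACCTTCcggaaggc
Hspa1a and Hspa1b are 9.95 kb apart and share 247 of 250 bases before the start. Those bases lie outside the counted messages, whose likeness was not measured. Counts of the pair may be split between them in an uncertain way, which was not tested.

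For immediate early genes the sites of factors that stand ready before a signal were searched in the same 250 bases. The cAMP response element TGACGTCA, which reads alike on both strands, was found in 3 of 30 members (Btg2, Dusp1 and Maff) and 1.77% of all genes. The CArG box of serum response factor was found in 2 of 30 (Egr2 and Zfp36) and 1.62%. The AP-1 site TGACTCA, on either strand, was in none of 30 immediate early members, in 1 of 10 heat shock members (Bag3) and in 5.16% of genes. These are matches of letters, and windows farther from the start were not searched. A window of each kind found is shown from genes whose levels are given above:
Dusp1, chr17:26508597-26508626, minus strand, cAMP response element: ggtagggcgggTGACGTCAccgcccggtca
Btg2, chr1:134079303-134079332, minus strand, cAMP response element: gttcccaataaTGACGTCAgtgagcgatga
Zfp36, chr7:28379267-28379296, minus strand, CArG box: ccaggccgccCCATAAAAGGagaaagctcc

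Heat shock members were lower in adult cluster 0 than in cluster 1 as a sum, with a ratio of 0.460 (0.437 to 0.483), but not gene by gene. Of 12 measured members 4 (Hsp90aa1, Hsp90ab1, Hsph1 and Dnaja1) were at least 2-fold lower in cluster 0 and 1 (Hspb1) was at least 2-fold higher, with a median log2 fold of -0.70. The shares of all measured genes are those given above, 23% and 12.7%. Without Hsp90aa1, Hsp90ab1 and Hsph1 the summed levels of the other 10 members were 28.6 in cluster 0 and 28.4 in cluster 1, a ratio of 1.01 (0.937 to 1.08). The 3 genes were picked after their lower values were seen, so that choice sets this ratio and nothing is read from it. Among the 10 that remain, Dnaja1 was lower and Hspb1 higher in cluster 0.

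Hsp90aa1 and Hsp90ab1 encode the inducible and the constant form of Hsp90, a chaperone of kinases and steroid receptors. Hsp90aa1, at chr12:110690605-110702728 on the minus strand, had a level of 1.87 (1.52 to 2.29) in adult cluster 0, 31.3 (29.9 to 32.8) in cluster 1, 17.5 (15.2 to 20) in cluster 3, 3.11 (1.87 to 4.86) in cluster 4 and 5.0 (3.77 to 6.49) in cluster 5. At P4 it was 5.55 (5.17 to 5.94) in cluster 0 and 3.41 (2.98 to 3.89) in cluster 1. Clusters 1 and 3 stood apart from all others, and the ratio of cluster 0 to cluster 1 was 0.0598 (0.0482 to 0.0734). A UMI was seen in 86.3% of cells of cluster 1, with a median of 25.4 per 10000, and in 44.6% of cells of cluster 0, with a median of 0. Hsp90ab1 differed less, with 12.6, 31.9, 15.7, 8.67 and 11.2 in adult clusters 0, 1, 3, 4 and 5, and 20.2 and 19.6 at P4. Hsph1, a nucleotide exchange factor of Hsp70, had 0.175 (0.0802 to 0.333) in cluster 0, 2.53 (2.14 to 2.97) in cluster 1 and 1.79 (1.12 to 2.70) in cluster 3, and 0.178 and 0.166 at P4.

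Of the Hsp70 members Hspa8 showed little of this, while the sparse Hspa1a was also lower in cluster 0 than in cluster 1. Hspa8, the constant cytosolic Hsp70, had 14.8, 13.6, 13.2, 11.3 and 9.46 in adult clusters 0, 1, 3, 4 and 5 and 14.2 and 11.8 at P4, and the ratio of cluster 0 to cluster 1 was 1.09 (0.986 to 1.21). Hspa1a, the classic heat-induced Hsp70, was sparse, at 0.468, 1.01, 0.893 and 1.43 in adult clusters 0, 1, 3 and 5 with 0 of 61113 UMI in cluster 4, and at 0.527 and 0.468 at P4. The floor of 3 counts over cluster 4 equals a level of 0.491. Hspa1b had 31 UMI in the adult library and 13 at P4.

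Hspb1, a small heat shock protein that holds unfolded proteins and binds actin, was higher in adult cluster 0 than in cluster 1, where Hsp90aa1 was lower. Both genes were high in cluster 3. This gene of 3 exons at chr5:135887919-135889563 had a level of 4.50 (3.94 to 5.12) in adult cluster 0, 0.422 (0.273 to 0.623) in cluster 1, 17.1 (14.9 to 19.6) in cluster 3, 1.80 (0.899 to 3.22) in cluster 4 and 6.42 (5.03 to 8.09) in cluster 5. The ratio of cluster 0 to cluster 1 was 10.7 (7.05 to 16.8) and that of cluster 3 to cluster 1 was 40.6 (26.7 to 64.2). A UMI was seen in 8.20% (4.66 to 13.2) of cells of cluster 1 and in 70.3% (53.0 to 84.1) of cluster 3, by exact binomial intervals, although the multiciliated marker sum of both was high. Cluster 3 was also above cluster 1 in secretory markers (31.1 and 11.1). The part of secretory transcripts in the Hspb1 level of cluster 3 was not tested.

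Dnajb1 and Dnaja1, Hsp40 partners that hand clients to Hsp70, were highest in adult cluster 3. Dnajb1, the main stress-induced Hsp40, had 1.54, 2.26, 8.61 (7.05 to 10.4), 0.327 and 0.981 in adult clusters 0, 1, 3, 4 and 5, with a ratio of 3.80 (2.92 to 4.95) between clusters 3 and 1. Dnaja1 had 2.32 in cluster 0, 4.81 in cluster 1 and 6.09 in cluster 3. In cluster 3 against cluster 1, 2 of 12 measured heat shock members (Hspb1 and Dnajb1) were at least 2-fold higher and 1 (Hsp90ab1) was at least 2-fold lower, beside 11.7% and 9.06% of all measured genes. The ratio of the sums was 0.910 (0.851 to 0.972). The median log2 fold was -0.10. Without Hsp90aa1, Hsp90ab1 and Hsph1 the ratio of the sums was 1.79 (1.63 to 1.96). These 3 genes were picked after their high values in cluster 1 were seen. Cluster 1 is the reference here too, so nothing is read from that ratio. The mitochondrial chaperonins differed little: Hspe1 had 3.14, 4.07, 2.52, 4.75 and 2.23 in the adult clusters, and Hspd1 between 0.803 and 1.38. Bag3, a co-chaperone of selective autophagy, and Dnajb4 had levels of at most 0.357 and 0.535 in any cluster.

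In cluster 4 none of 9 measured heat shock members was at least 2-fold above cluster 0 and 3 (Hspb1, Dnajb1 and Bag3) were below, Bag3 with 0 UMI, where 8.99% and 20.8% of all measured genes were. The median log2 fold was -0.54, and the ratio of sums 0.756 (0.651 to 0.874). Bag3 lay under the floor of 3 counts in cluster 0 too, and with it at no fold the median was -0.39. In cluster 5, 4 of 12 (Hspa1a, Hsph1, Dnajb4 and Hsp90aa1) were at least 2-fold above cluster 0 and none below, where 14.8% and 8.41% of all were. The sums did not differ beyond counting error (ratio 0.994, 0.899 to 1.10) while the median log2 fold was 0.40, so sum and median lay on different sides of equality. The heat shock level in cluster 5 was 52.2 (46.5 to 58.4) in its 7 cells with smooth muscle markers and 33.1 (28.4 to 38.3) in the other 18.

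At P4 the clusters differed in few genes of any kind, and immediate early genes were moderately higher in cluster 1. Of 8721 measured genes 1.41% were higher by at least 2-fold in cluster 1 than in cluster 0, and 1.38% lower. Of 33 measured immediate early members 3 (Nr4a1, Maff and Socs3) were higher by that rule and none lower, 29 had a fold above 1, and the median log2 fold was 0.36 beside -0.01 for all genes. The count of 3 became 0 with a pseudocount of 0.5 per 10000, 1 without the 5% of cells with the most UMI and 5 of 23 after thinning to 1000 UMI. The ratio of sums was 1.38 (1.34 to 1.41). Nr4a1 had 2.68 (2.42 to 2.96) in cluster 0 and 5.55 (5.0 to 6.15) in cluster 1. Socs3 had 3.40 (3.11 to 3.72) and 7.30 (6.67 to 7.99), and Maff, a small Maf factor, 0.274 (0.196 to 0.373) and 0.845 (0.638 to 1.10). Jun and Jund differed by less than counting error, with ratios of 1.03 (0.936 to 1.13) and 0.994 (0.895 to 1.10). Median depth was 7856 UMI per cell in cluster 0 and 7029 in cluster 1.

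Heat shock sums of the P4 clusters did not differ beyond counting error, with a ratio of 1.001 (0.961 to 1.04). Within it, 2 of 11 measured members were at least 2-fold higher in cluster 1: Hspb1, at 2.59 (2.33 to 2.86) in cluster 0 and 5.98 (5.40 to 6.60) in cluster 1, and Dnajb1, at 0.897 (0.750 to 1.06) and 2.04 (1.71 to 2.41). None was 2-fold lower, and the median log2 fold was -0.03. The shares of all genes are those given above, 1.41% and 1.38%. Hsp90aa1 was lower in cluster 1 by less than that rule, with a ratio of 0.615 (0.528 to 0.714), and P4 cluster 0 also held more multiciliated marker UMI (6.54 against 1.31).

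The libraries of the 2 ages were compared over the 26897 shared genes. Age and library cannot be told apart, since each age is 1 library, and the mix of cell types differed: the multiciliated marker sum was 69.4 in all adult and 4.91 in all P4 cells. Median mitochondrial shares were 3.996% and 0.844%, and ribosomal protein shares 15.1% and 28.7%. The part of any of these was not tested. The immediate early sum was 148.7 at P4 and 148.3 in the adult, a ratio of 1.002 (0.984 to 1.02), with adult clusters above and below both P4 clusters. Of 33 measured members 4 (Egr3, Nr4a1, Gadd45b and Cyr61) were at least 2-fold higher at P4, where 10.4% of 7283 genes were, and 2 (Jund and Klf2) lower, where 11.5% were. The median log2 fold was 0.20, beside 0.09 for all genes. As a mean over cells in place of a pool of UMI, the log2 fold of the sums was 0.27.

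Cyr61 had 9.98 (9.53 to 10.4) at P4 and 3.09 (2.80 to 3.40) in the adult, and adult cluster 3, at 10.6 (8.83 to 12.6) over shared genes, lay between P4 clusters 0 and 1, at 9.31 and 11.4. Gadd45b had 3.01 (2.77 to 3.27) and 0.850 (0.703 to 1.02), and Nr4a1 4.13 (3.84 to 4.43) and 1.40 (1.21 to 1.61). Egr3 had 60 UMI at P4 and 2 in the adult, a ratio of 22.5 (5.95 to 190). Jund had 9.20 (8.77 to 9.65) at P4 and 19.7 (18.9 to 20.4) in the adult. Over shared genes the P4 clusters had 9.23 and 9.12, and of the adult clusters only cluster 4, at 7.66 (5.61 to 10.2), was not above them. Klf2 had 0.555 (0.452 to 0.673) at P4 and 3.19 (2.90 to 3.50) in the adult. Fos was lower at P4 by less than the rule, at 14.9 (14.4 to 15.5) against 22.2 (21.4 to 23.0).

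Of 11 measured heat shock members none was at least 2-fold higher at P4 and 2 were lower, beside 10.4% and 11.5% of all measured genes, with a median log2 fold of -0.06. Hsp90aa1 had 5.63 (5.29 to 5.99) at P4 and 16.3 (15.6 to 17) in the adult, and Hsph1 0.201 (0.142 to 0.277) and 1.38 (1.19 to 1.59). Both genes were high in the adult clusters rich in multiciliated markers, and the part of the cell mix in these differences was not tested. The ratio of heat shock sums was 0.869 (0.845 to 0.893), and without Hsp90aa1, Hsp90ab1 and Hsph1 it was 1.03 (0.986 to 1.07). That division was made after the values were seen, and nothing is read from the latter ratio. The P4 table lists more gene names than the adult one, among them 6 named as pseudogenes of Hspe1 with 15 UMI and 4 of Hspd1 with 36 UMI. These are few beside the 825 UMI of Hspe1 and 312 of Hspd1, and reads could be shared with them in that table.

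**Figure D4:**
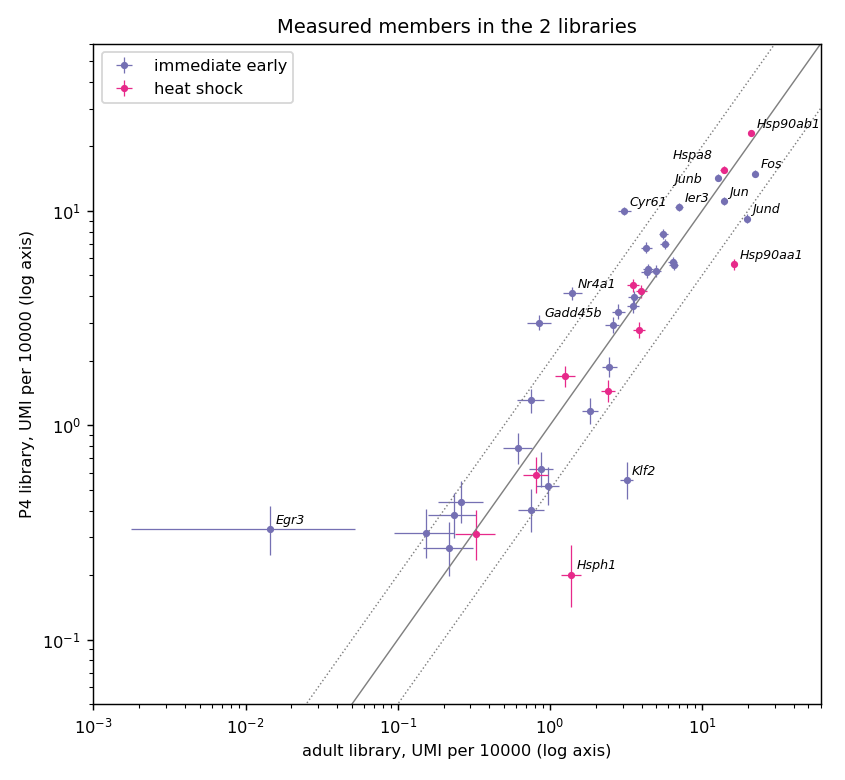
Each point is a measured member, with its pooled level in the adult library (x, log axis) and at P4 (y, log axis) in UMI per 10000 over shared genes, and bars are exact 95% Poisson intervals. The solid line marks equal levels and the dotted lines 2-fold. Cyr61, Nr4a1, Gadd45b and Egr3 lie above the upper dotted line, and Klf2, Hsph1, Hsp90aa1 and Jund below the lower one; Egr3 has 2 adult counts.

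The authors also clustered both ages together, and 14 P4 cells (11 of P4 cluster 0 and 3 of P4 cluster 1) fell into merged cluster 0, which holds 178 cells of adult cluster 1. Of the other P4 cells 225 lay in merged cluster 1, and 24 of the 263 had no merged cluster number. In these 14 cells the multiciliated marker sum was 61.6, against 2.3 in the 225 P4 cells of merged cluster 1. Their Hsp90aa1 level was 33.8 (30.3 to 37.5), beside 3.91 (3.61 to 4.22) in the 225 P4 cells of merged cluster 1 and 32.3 (30.8 to 33.8) in the 197 adult cells of merged cluster 0. Their heat shock sum was 103.1 (97.0 to 109.4) and their immediate early sum 67.0 (62.2 to 72.2), against 57.5 and 156.9 in the 225 cells. Klf2 did not follow: it had 0.381 (0.104 to 0.977) in the 14 cells, 0.545 (0.437 to 0.671) in the 225 cells and 4.72 (4.18 to 5.33) in the adult cells of merged cluster 0. The merged clusters were formed from expression, so this is a description with no test.

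In the merged clustering adult cluster 3 was split, with 17 cells in merged cluster 0 and 19 in merged cluster 6. Adult cells of merged cluster 6 (21 in all) had an immediate early level of 300.3 (289.6 to 311.3) and a heat shock level of 95.3 (89.3 to 101.6), with Hspb1 at 17.9 (15.3 to 20.7) and Klf2 at 5.86 (4.45 to 7.58). Merged clusters 2 and 4 divided adult clusters 0, 4 and 5, and had immediate early levels of 185.9 (182.3 to 189.5) and 122.4 (116.0 to 129.1). Their Klf2 levels were 1.64 and 0.721, and those of Hspb1 3.80 and 9.38. The merged cluster lower in immediate early genes was the higher in Hspb1.

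Across single cells the relation of the 2 groups ranged from weakly negative to moderately positive over the clusters. Cells of a cluster share a library, and depth differs between them, so correlations are given as descriptions. Spearman's rho between the immediate early and heat shock sums was 0.18 in adult cluster 0 (130 cells) and 0.28 in cluster 1 (183 cells). Thinned to 1000 UMI these fell to 0.10 (112 cells) and 0.11 (141 cells). In cluster 1 both sums rose with the UMI of the cell (rho 0.30 and 0.26). The relation was -0.04 in cluster 4 (31 cells) and 0.44 in cluster 5 (25 cells), and -0.14 (19 cells) and 0.30 (21 cells) thinned. At P4 it was -0.21 in cluster 0 (168 cells) and 0.14 in cluster 1 (95 cells), and -0.02 and -0.03 after thinning. It was 0.57 in adult cluster 3 (37 cells) and 0.47 there after thinning to 1000 UMI (29 cells). In that cluster the immediate early and heat shock sums both went down with the share of ribosomal protein UMI (rho -0.62 and -0.43). Both rose with the UMI of the cell (rho 0.21 and 0.43), and the part of these in the relation was not tested.

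**Figure D5:**
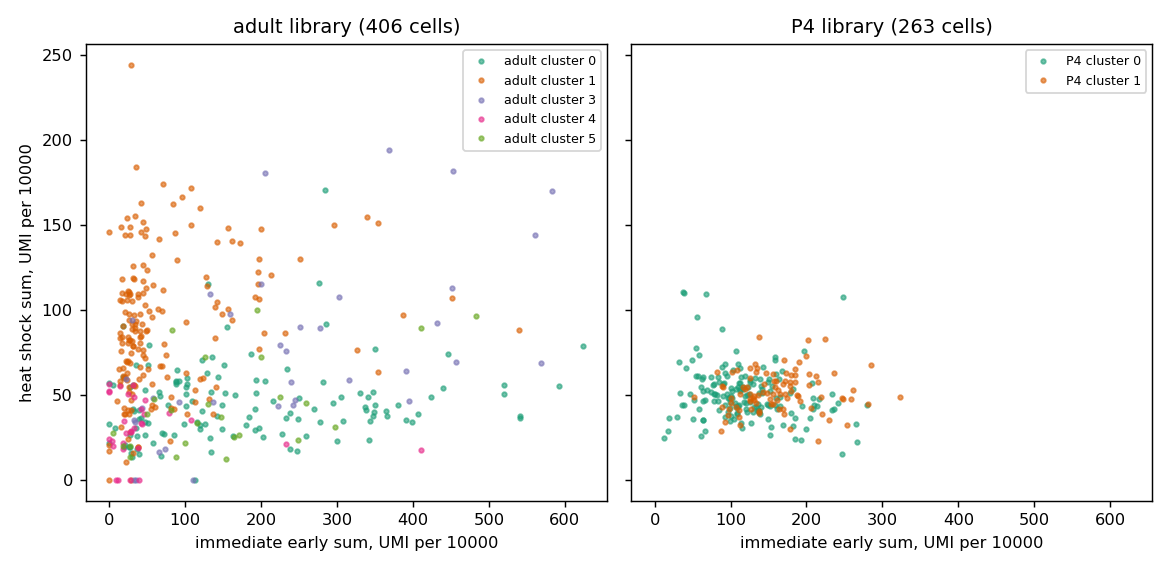
Each point is a cell, with its immediate early sum (x) and heat shock sum (y) in UMI per 10000 UMI of the cell, coloured by the authors' cluster, for the adult library (left) and P4 (right). Adult cluster 1 lies high and to the left, with a median of 40.5 immediate early and 87.9 heat shock UMI per 10000, and P4 cells form 1 narrower cloud.

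The median correlation with the rest of the list was higher for immediate early than for heat shock members. For members with a UMI in at least 20% of cells, the correlation of each with the sum of the rest of its list had a median of 0.58 in adult cluster 0 (25 members, up to 0.85 for Fos). In cluster 3 it was 0.55 (27 members, up to 0.90 for Atf3), and at P4 0.31 (30 members). For heat shock members the medians were 0.10 (8 members), 0.41 (10 members) and 0.07 (9 members). In adult clusters 1, 4 and 5 they were 0.43, 0.16 and 0.39 for immediate early and 0.20, 0.09 and 0.15 for heat shock members. In P4 clusters 0 and 1 they were 0.39 and 0.23, and 0.12 and -0.06. The sum of the rest holds more genes in the longer immediate early list, and cells were not thinned here. The part of list length and depth in the gap was not tested. Both lists share cells and depth, and members with more UMI are measured more precisely, so the values of single genes are not ranked.

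Among non-members with a UMI in at least 20% of cells, Ppp1r15a, a phosphatase subunit of the stress response, had the highest correlation with the immediate early sum in adult cluster 0 (rho 0.72, 130 cells, 2020 genes, median over genes 0.04). Next came Pnrc1 (0.54), Hes1, a Notch target (0.52), Cebpb (0.50), Tiparp, Sfn, Irf1, Bhlhe40, H2-Q4 and Ifrd1 (0.48 to 0.40). In adult cluster 1 (183 cells, 2053 genes, median 0.10) the highest values included those of Pnrc1 (0.44), Il10rb, Ppp1r15a, Cebpb, Neat1, Sqstm1, Hspa5, Ddx3x and Puf60 (0.33). At P4 (263 cells, 3941 genes, median -0.02) it was Irf1 (0.48), Cebpd, Sdc4, Pabpc1, Ppp1r15a, Hbegf, Hes1, Cldn4, Cebpb and Ifitm1 (0.32). Ppp1r15a and Cebpb appeared in each of these 3 sets.

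Other early genes, from a list of 50 that are no members, had more genes at least 2-fold higher in adult cluster 0 than in cluster 1 (16 of 31 measured, with 2 lower, beside 12.7% and 23% of all measured genes, and a median log2 fold of 1.004). Phlda1, an early gene of growth factor signals, had 3.80 in cluster 0 and 0.439 in cluster 1, and Dusp5, a nuclear phosphatase of ERK, 0.585 and 0.0675. Areg, a ligand of the EGF receptor, ran the other way, with 1 UMI in cluster 0 and 92 in cluster 1. In cluster 3 against cluster 1 there were 19 of 30 higher and 2 lower (11.7% and 9.06% of all), and Hbegf, another EGF receptor ligand, had 2.35 and 0.152. In cluster 4 against cluster 0 there was 1 of 30 higher and 20 lower (8.99% and 20.8% of all). In cluster 5 against cluster 0 there were 2 of 35 in each direction (14.8% and 8.41% of all). In P4 cluster 1 against cluster 0, 4 of 38 were higher and 1 lower (1.41% and 1.38% of all). Cebpb had 4.01 in P4 cluster 0 and 10.5 in P4 cluster 1, while Edn1, which encodes endothelin, had 3.26 and 1.12. Between ages 10 of 37 were higher at P4 and 3 lower (10.4% and 11.5% of all). Cxcl1, a neutrophil chemokine, had 138 UMI at P4 and 1 in the adult, and Klf5, an epithelial factor, had 2.56 and 0.421.

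Genes upstream of the response were counted in the same way, and the shares of all measured genes are those of the previous paragraph. Of the MAP kinase and serum response genes (27 listed), 1 of 13 measured was at least 2-fold higher in adult cluster 0 than in cluster 1 and 2 lower, none of 13 differed by that rule between clusters 3 and 1, and none of 21 between P4 and adult. In cluster 4, 3 of 12 were lower than in cluster 0, in cluster 5, 4 of 18 were higher and 1 lower, and between P4 clusters 1 of 23 was lower in cluster 1.

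Other chaperones (34 listed) were partly lower in adult cluster 0 than in cluster 1. Of 31 measured, 13 were at least 2-fold lower, 2 higher and 16 within 2-fold, beside 23% of all measured genes lower and 12.7% higher, with a median log2 fold of -0.72. Dnaja4, an Hsp40, had 0.136 in cluster 0 and 5.76 in cluster 1, Hspa4l, an Hsp110, 0.0780 and 3.73, and Hspa2, an Hsp70, 0.136 and 2.97. Heat shock factor 2 (Hsf2) had 0.0780 (4 UMI) in cluster 0 and 1.40 (83 UMI) in cluster 1. No heat shock factor was measured in cluster 4 or cluster 5 against cluster 0. In cluster 3 against cluster 1 and between the P4 clusters 2 were measured, and 1 in P4 against adult, none past 2-fold. In cluster 3 against cluster 1, 1 of 29 chaperones was higher and 3 lower (11.7% and 9.06% of all): Cryab, a small heat shock protein like Hspb1, had 2.68 in cluster 3 and 0.203 in cluster 1, and Dnajc7 had 3.82 and 10.1. In cluster 4 against cluster 0, 3 of 26 were lower (20.8% of all), and in cluster 5 against cluster 0, 4 of 28 were lower and 1 higher (8.41% and 14.8% of all). Between the P4 clusters 1 of 34 was higher and 1 lower (1.41% and 1.38% of all). Between ages 8 of 32 were lower at P4 and 1 higher (11.5% and 10.4% of all). Dnaja4 had 0.136 at P4 and 2.83 in the adult, and Dnajc7 0.859 and 5.06.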

How the data were processed

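The authors deposited raw counts (UMI per gene and cell) for the adult and the P4 library, not normalized, with tables that give each cell a cluster number. Of software, the submitters' processing notes list Seurat 2.3.4 and Cell Ranger, whose version is not given in the sources used here, and as genome build mm10, with no role for any. Counts were checked to be whole, with totals that differ between cells. The merged count table was not used, and its cluster numbers were.

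Adult barcodes in 2 columns were counted once, from the first prefix. Counts were summed over the cells of a cluster and given per 10000 UMI, over all genes within an age and over shared genes between ages. A pseudocount of 0.1 per 10000 entered folds, and a floor of 3 counts over the group stood in for counts of 0. Exact 95% intervals cover counting error only, and UMI counts of 502 to 23372 per cell limit their precision. No test was made, because each age has 1 library. For correlations and as an alternative, cells were thinned to 1000 UMI. No doublet caller was run.

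Members and lists were chosen with earlier results of these data known. The rule for names was: all members, by role; in other lists the 3 measured genes with the largest fold; and the 10 non-members most correlated with the immediate early sum, of which 1 is not reported here. In the text some of those 3 are left out where no fold reached 2 or counts were few. The members Ier5, Btg1 and Zfp36l1 are not described in the text. Some others, Ier2 and Klf10 among them, are named there without a level. The division of the heat shock list into 3 genes and 10 was made after the values were seen. Symbols were matched to GENCODE M21 (GRCm38; 48 of 48, Cyr61 as Ccn1) and RefSeq promoters (40 of 48). Python 3.11.15, numpy 2.4.6, scipy 1.17.1, pandas 2.3.3 and matplotlib 3.10.9 were used, and the scripts were tested on simulated data.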

Additional observations from a re-analysis of the deposited data

How the results depend on the processing

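Of 66 alternative values of summed levels 60 kept the sign of the reported one, and 33 moved by less than its counting interval. Of the 6 that changed sign 3 lay within that interval: the heat shock log2 fold of the P4 clusters was -0.02 thinned and -0.03 without mitochondrial and ribosomal protein genes, and the immediate early one of P4 against adult was -0.0012 with the second column of repeated barcodes. The other 3 came without Hsp90aa1, Hsp90ab1 and Hsph1. Of 84 counts of members past 2-fold 71 stayed within 1.5 times. Values are log2 folds, immediate early first. As a mean over cells, cluster 0 against 1 gave 1.28 and -1.002, cluster 4 against 0 gave -1.95 (immediate early), cluster 3 against 1 gave 1.65 and -0.27 (2 heat shock members lower), cluster 5 against 0 gave -0.23 (1 heat shock member), P4 cluster 1 against 0 gave 0.43 (1 heat shock member) and P4 against adult 0.27. Thinned to 1000 UMI, cluster 0 against 1 gave 1.22, cluster 3 against 1 gave 1.59, cluster 5 against 0 gave -0.75 and -0.29 (8 immediate early and 2 heat shock members), the P4 clusters 0.42 (5 immediate early members) and P4 against adult 0.19 and -0.30. Without mitochondrial and ribosomal protein genes in the total, cluster 0 against 1 gave 1.40 and -0.86, and P4 against adult 0.18 and -0.024. Without the 5% of cells with the most UMI, cluster 0 against 1 gave 1.31 and -1.20, cluster 3 against 1 gave 1.73, cluster 5 against 0 gave -0.63 (7 immediate early members and 1 heat shock member), the P4 clusters 0.38 and 0.081 (1 immediate early member) and P4 against adult 0.076 and -0.31. With a pseudocount of 0.5 per 10000 the P4 clusters had 0 immediate early members past 2-fold and 1 heat shock member. Without the cells of cluster 5 rich in smooth muscle markers, cluster 5 against 0 gave -0.60 and -0.39 (11 and 2 members). Without Hsp90aa1, Hsp90ab1 and Hsph1, an alternative chosen after seeing the data, the heat shock log2 fold was 0.0081 for cluster 0 against 1, 0.84 for cluster 3 against 1 and 0.037 for P4 against adult, each of the other sign than reported, and 0.15 for the P4 clusters. Nothing is read from that division, and the cause of these moves was not tested.

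No paired analysis was possible because each age is 1 library with 1 replicate number. Leaving out a replicate was not possible for the same reason. A 25% gene filter and the second column of repeated adult barcodes moved no value past these limits. Depth limits cluster 4 most, where 3 counts equal a level of 0.491 per 10000.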
